A study of Mus musculus with 224 samples.

Results

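The guanylate-binding proteins (GBPs) are large GTPases that interferons induce in many cell types. Their transcripts were followed here in 3 tissues (liver, soleus muscle, and adipose tissue of visceral origin) of 3 inbred mouse strains. The 10 genes Gbp2, Gbp2b, Gbp3, Gbp4, Gbp5, Gbp6, Gbp7, Gbp8, Gbp9 and Gbp10 were taken by symbol, through the Ensembl identifier of each row. All 10 were among the 12611 genes of the liver table and among the 16542 of the adipose table. In the muscle table, 9 of them were among 13637 genes, and Gbp8 had no row. The groups were C57Bl/6J, DBA/2J and BALB/cJ mice fed regular chow (RC) or a high fat diet (HFD), sampled on day 5, 13 or 33 by the labels. Each tissue had 18 groups of 4 animals, and the labels name the same 72 animals in all 3 tissues. The labels give no age, no transgene and no induced mutation, and the strains are compared as whole inbred strains, each of 1 genetic background. In all, 216 samples had a column, and 8 further liver libraries were not analysed here.

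Each library is RNA of a whole tissue piece, so fewer cells of a type and less RNA per cell cannot be told apart in any value below. The depth per library was 18078488 to 31991289 reads (liver), 19945355 to 33370016 reads (muscle) and 19783483 to 46795074 reads (adipose). The defining markers of each tissue were present. The 6 hepatocyte markers summed to 80470 to 151300 CPM (reads relative to library size) in liver, and the 7 skeletal muscle markers to 56800 to 133100 CPM in muscle. The adipocyte markers summed to 6687 to 61010 CPM in 70 adipose libraries. In the other 2, BALB/cJ animals on HFD of day 5 and day 33, they summed to 345 and 439 CPM, and the adipose strain differences of BALB/cJ on HFD named below are given with and without them. The adipose libraries also fell into 2 sets by their B cell markers, 32 with a sum of 5.31 to 113 CPM and 40 with 510 to 2956 CPM. Over all adipose libraries, T cell markers summed to 6.21 to 1649 CPM and natural killer cell markers to 1.13 to 100 CPM. Adipocyte markers summed to 6687 to 32540 CPM in the set of 40. In the set of 32, without the 2 libraries above, they summed to 22310 to 61010 CPM. The sets thus differed in more than B cell markers. Markers of other tissues were found too. Hepatocyte markers summed to 8.28 to 7452 CPM in muscle and 122 to 16500 CPM in adipose tissue. In adipose tissue on RC their medians were 1382 (C57Bl/6J), 744 (DBA/2J) and 4081 CPM (BALB/cJ). Adipocyte markers summed to 742 to 5883 CPM in muscle, and skeletal muscle markers to 5.07 to 2408 CPM in adipose tissue. Their part in the Gbp values was not tested.

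As background, GBPs bind and hydrolyse GTP, assemble on membranes and on vacuoles that hold intracellular pathogens, and take part in the activation of inflammasomes. Interferon gamma induces them through transcription factors that act at GAS and ISRE elements of promoters. The mouse genes lie in 2 clusters. In build GRCm38 (GENCODE M21), all 10 are annotated as protein-coding. The cluster on chromosome 3, on the plus strand, holds Gbp5 (142493978 to 142522344), Gbp7 (142530342 to 142550149), Gbp3 (142560026 to 142573209), Gbp2b (142594847 to 142619179) and Gbp2 (142620602 to 142638008). The cluster on chromosome 5, on the minus strand, holds Gbp8 (105014150 to 105139540), Gbp9 (105077630 to 105139539), Gbp4 (105115767 to 105139586), Gbp10 (105215699 to 105239533) and Gbp6 (105270702 to 105293698). Gbp2, Gbp2b and Gbp5 carry a lipid attachment motif at the carboxyl end, and Gbp2 is the member best known for coating Toxoplasma vacuoles.

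The 250 bases before the RefSeq start (GRCm38.p6) are shown for the chromosome 3 genes, since these are the windows where the interferon-responsive elements of the family are known. Sequences were matched for 5 of the 10 genes, those on chromosome 3. Capitals mark matches on either strand to GAAA, any 2 bases and GAAA again (ISRE, which reads TTTC, 2 bases and TTTC on the opposite strand), or to TTCNNNGAA (GAS).

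Gbp3, first start, chr3:142559794-142560043, plus strand: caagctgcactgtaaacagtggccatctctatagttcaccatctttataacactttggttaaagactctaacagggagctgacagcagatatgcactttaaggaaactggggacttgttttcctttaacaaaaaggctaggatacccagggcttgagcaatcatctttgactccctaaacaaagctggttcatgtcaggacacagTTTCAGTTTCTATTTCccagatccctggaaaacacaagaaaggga
Gbp2b, chr3:142594597-142594846, plus strand: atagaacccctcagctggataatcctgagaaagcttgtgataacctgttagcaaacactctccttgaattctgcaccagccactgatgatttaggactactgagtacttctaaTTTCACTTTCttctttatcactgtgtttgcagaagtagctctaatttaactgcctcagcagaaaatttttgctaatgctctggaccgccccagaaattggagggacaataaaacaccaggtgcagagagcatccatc
Gbp2, chr3:142620413-142620662, plus strand: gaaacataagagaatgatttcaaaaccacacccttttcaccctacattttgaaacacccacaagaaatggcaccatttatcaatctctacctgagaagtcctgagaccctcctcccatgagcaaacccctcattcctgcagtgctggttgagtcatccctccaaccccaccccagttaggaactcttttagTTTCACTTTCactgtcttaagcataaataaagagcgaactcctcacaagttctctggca
Gbp5, chr3:142496684-142496933, plus strand: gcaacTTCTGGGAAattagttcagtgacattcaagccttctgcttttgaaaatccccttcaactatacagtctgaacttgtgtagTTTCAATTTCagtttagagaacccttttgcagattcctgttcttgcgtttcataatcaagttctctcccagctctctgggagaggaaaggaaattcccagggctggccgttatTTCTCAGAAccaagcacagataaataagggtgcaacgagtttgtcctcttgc
Gbp7, chr3:142530086-142530335, plus strand: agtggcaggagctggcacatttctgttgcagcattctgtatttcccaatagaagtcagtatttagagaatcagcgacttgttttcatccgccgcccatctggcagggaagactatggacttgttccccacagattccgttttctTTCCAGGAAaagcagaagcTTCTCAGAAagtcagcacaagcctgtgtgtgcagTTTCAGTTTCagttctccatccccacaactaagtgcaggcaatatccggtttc

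Gbp2b held 1 ISRE match that began 137 bases before the start, and Gbp2 held 1 that began 59 bases before it. Gbp5 held 1 ISRE match (165 bases before) and 2 GAS matches (245 and 52 bases before). Gbp7 held 1 ISRE match (53 bases before) and 2 GAS matches (106 and 87 bases before). Gbp3, with 2 RefSeq starts, held 2 overlapping ISRE matches (45 and 39 bases before) at the first start, and no match of either motif in the window of the second. Of 32851 promoter windows of this length, 2.98% held the ISRE letters, 7.02% the GAS letters and 0.332% both. All 5 genes with a window thus held an ISRE match at 1 start or more, which describes the letters and not the binding of a factor.

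Reads can be shared among members. Of the 100-base windows of each gene's transcripts, 64.5% of those of Gbp6 and 73.5% of those of Gbp10 also occurred in another annotated gene. The coding sequences of Gbp6 and Gbp10 were 98.4% identical (1803 of 1833 aligned positions). Both also share exons with Gm43302, an annotated gene that spans both loci of the same cluster and had no row in any of the 3 tables. For Gbp7, 10% of windows were shared, and for the other 7 genes at most 4.39%. Gbp2 and Gbp2b, which lie side by side and were 82.5% identical in coding sequence, shared no window. Values of Gbp6 and Gbp10 are therefore uncertain one against the other, and their summed level is given per tissue. All reads were aligned to GRCm38, the genome of C57BL/6J, so that sequence differences of DBA/2J and BALB/cJ can enter any strain difference, and their part was not tested.

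Most members had their highest median in adipose tissue, and Gbp6 and Gbp10 had theirs in muscle. The 3 tables were scaled separately, and levels across tissues have no test. Levels between genes are given as RPKM, reads per exon length and library size, and as medians of 72 animals. In adipose tissue, Gbp2 led at 41.8 RPKM (3.49 to 78.5). It was followed by Gbp2b at 14.6, Gbp9 at 12.4, Gbp3 at 11.9, Gbp4 at 8.36, Gbp7 at 8.28, Gbp8 at 6.12, Gbp5 at 4.75, Gbp6 at 1.16 and Gbp10 at 0.461 RPKM. The ranges of neighbours in this order overlapped. In muscle, Gbp2 also had the highest median, 3.71 RPKM (1.95 to 5.71). Gbp10 was next at 2.63 with the widest range, 0.477 to 48.3 RPKM. Gbp9 (1.87), Gbp6 (1.80), Gbp7 (1.58), Gbp3 (1.42), Gbp4 (1.06) and Gbp5 (0.549 RPKM) followed. Gbp2b was lowest in muscle, with a median of 0.0754 RPKM and a range from 0 to 3.30. The spread of Gbp10 and Gbp2b in muscle follows strain, as the plot of levels by animal shows. In liver no member had a median above 1.48 RPKM (Gbp7). Gbp2 stood at 1.36, Gbp3 at 1.05, Gbp10 at 0.758, Gbp2b at 0.604, Gbp9 at 0.459, Gbp8 at 0.354, Gbp6 at 0.315, Gbp4 at 0.267 and Gbp5 at 0.112 RPKM.

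**Figure D1:**
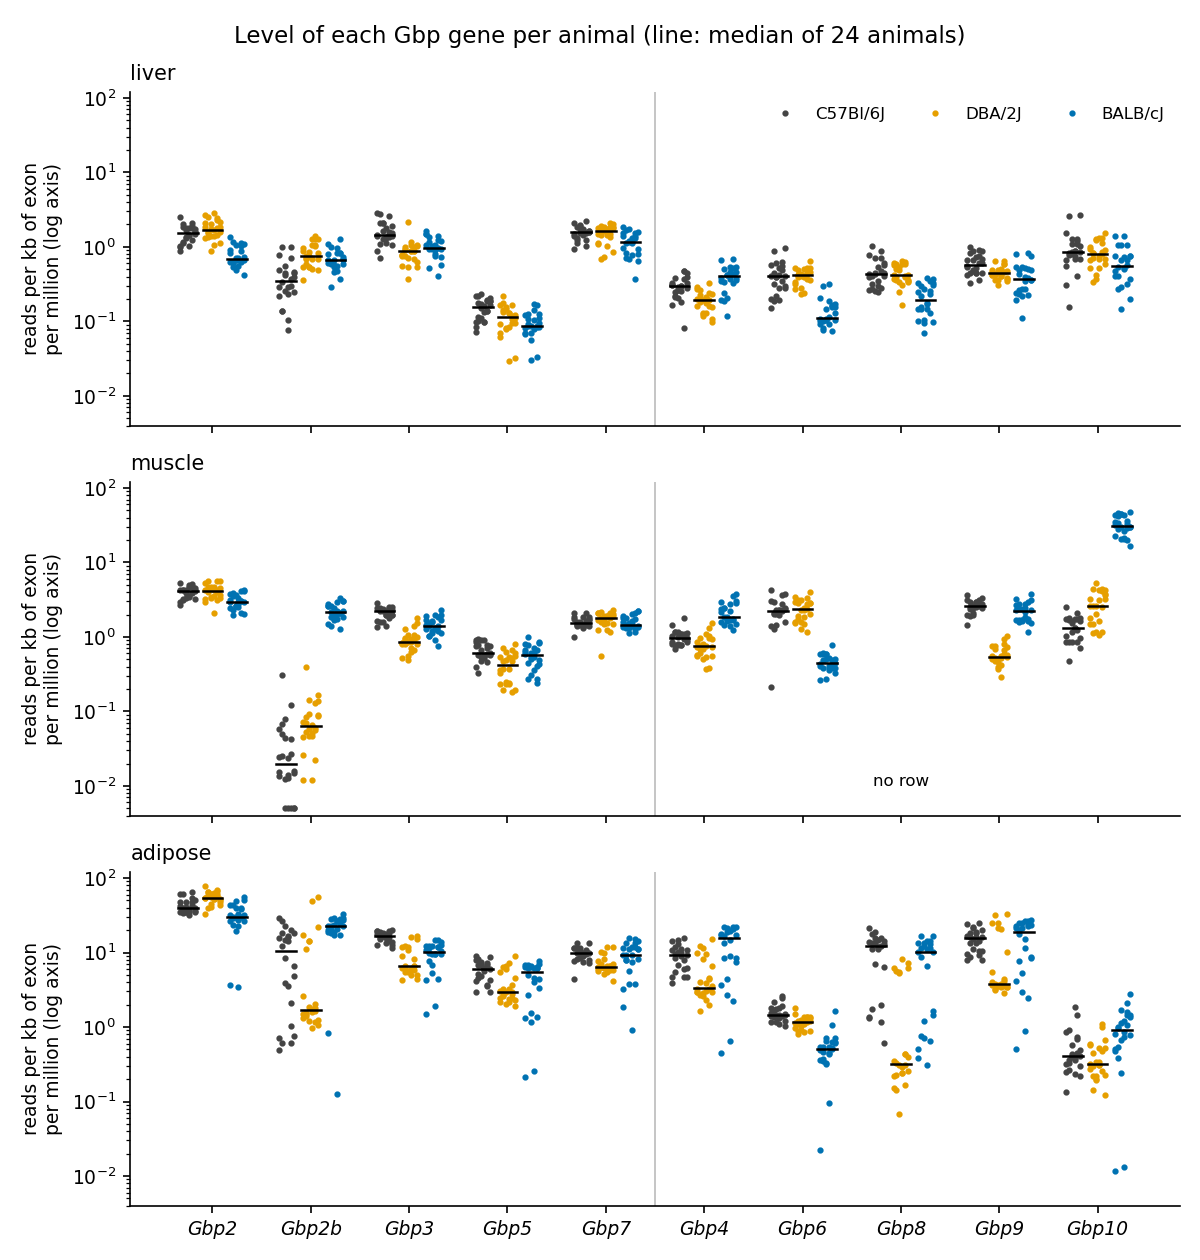
Level of each Gbp gene in each animal, in RPKM on a log axis, by tissue (panels) and strain (colours); lines are medians of 24 animals, the vertical line separates the chromosome 3 genes (left) from those on chromosome 5, and values of 0 are drawn at the lowest point. In muscle, Gbp2b and Gbp10 of BALB/cJ lie above both other strains, and in adipose tissue Gbp2b and Gbp8 spread over the widest range.

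In muscle, BALB/cJ mice stood apart in 4 members. Gbp10 and Gbp2b were far higher in BALB/cJ than in both other strains, Gbp4 was higher, and Gbp6 was lower. DBA/2J stood apart in Gbp9, which was lower than in both other strains. Values per animal are log2 CPM, differences are log2 fold changes ± standard error from limma, and adjusted p-values are Benjamini-Hochberg values over all genes of the table. On RC, 6 of 9 members differed between BALB/cJ and C57Bl/6J (44.5% of all genes did), 8 of 9 between BALB/cJ and DBA/2J (40.4% of all genes) and 5 of 9 between DBA/2J and C57Bl/6J (37% of all genes). On HFD, whose animals are other animals, these counts were 6 of 9 (34.7% of all genes), 7 of 9 (38.1%) and 5 of 9 (34.5%). So many genes differed between these strains that the members are better described by the sizes below than by the counts. The 3 pairs of strains share their samples.

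Gbp10 ranged on RC from 6.01 to 7.40 log2 CPM in BALB/cJ (median 6.87). In C57Bl/6J it ranged from 1.75 to 3.28 (median 2.38), and in DBA/2J from 2.16 to 4.38 (median 3.51). Every BALB/cJ animal was above every animal of both other strains, and the same held on HFD, where BALB/cJ ranged from 6.30 to 7.55. The difference of BALB/cJ from C57Bl/6J was 4.39 ± 0.17 on RC (adjusted p = 6.1e-31, limma) and 4.75 ± 0.17 on HFD. From DBA/2J it was 3.45 ± 0.17 and 3.8 ± 0.17. DBA/2J was itself above C57Bl/6J, by 0.94 ± 0.17 and 0.96 ± 0.17. Over the 6 combinations of diet and day, the difference from C57Bl/6J lay between 4.07 and 5.44.

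Gbp2b, the neighbour of Gbp2, was hardly detected in muscle of C57Bl/6J. On RC its values were -3.74 to -1.27 log2 CPM there (median -2.78), where -3.74 is the value of 0 reads, and 5 of 24 C57Bl/6J animals had 0 reads. No C57Bl/6J library held more than 24 reads and no DBA/2J library more than 36. On RC, DBA/2J ranged from -3.20 to 0.24 (median -2.12) and BALB/cJ from 1.89 to 3.10 (median 2.5). BALB/cJ did not overlap either strain on either diet. The difference from C57Bl/6J was 5.24 ± 0.30 on RC (adjusted p = 1.5e-22, limma) and 5.47 ± 0.30 on HFD, and that from DBA/2J was 4.29 ± 0.30 and 4.74 ± 0.30. Over the 6 combinations of diet and day it lay between 5.13 and 6.01. These log2 differences carry a prior count of 2 reads, which understates the change of a gene this low.

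Gbp6 went the other way. On HFD, BALB/cJ ranged from 0.71 to 1.90 log2 CPM (median 1.27), C57Bl/6J from 2.94 to 4.5 (median 3.6) and DBA/2J from 2.79 to 4.57 (median 3.83), so that BALB/cJ did not overlap them. On RC, BALB/cJ ranged from 0.77 to 2.26 (median 1.6), DBA/2J from 2.96 to 4.36 (median 3.81) and C57Bl/6J from 0.43 to 4.66 (median 3.79). The C57Bl/6J value of 0.43 belongs to 1 library of day 33. Gbp6 was lower in BALB/cJ than in C57Bl/6J by a log2 difference of -2.04 ± 0.21 on RC (adjusted p = 4.7e-12, limma), which was -2.34 without that library. On HFD the difference was -2.29 ± 0.21. Against DBA/2J it was -2.19 ± 0.21 and -2.39 ± 0.21. DBA/2J and C57Bl/6J did not differ past the threshold in Gbp6 (0.15 ± 0.21 on RC and 0.09 ± 0.21 on HFD).

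Since the coding sequences of Gbp6 and Gbp10 were 98.4% identical, their reads were also summed. Of the 100-base windows, 36.3% of those of Gbp6 occurred in Gbp10, and 60.1% of those of Gbp10 in Gbp6. The summed level in muscle had medians of 4.21 log2 CPM (C57Bl/6J), 4.72 (DBA/2J) and 6.94 (BALB/cJ, 6.06 to 7.56), so the strain order of the sum was that of Gbp10. The lowest BALB/cJ sum was above the highest of C57Bl/6J (5.12) and of DBA/2J (5.32). Of the summed reads, Gbp10 took medians of 27.5% (C57Bl/6J), 41.6% (DBA/2J) and 97.9% (BALB/cJ, 96.1% to 99.0%). In liver the share of Gbp10 was 59.9%, 56.4% and 73.9% in the same order, and in adipose tissue 15.5%, 15.6% and 52.5%. The summed level had medians of 2.49, 2.5 and 1.55 log2 CPM in liver and of 3.36, 3.02 and 2.72 in adipose tissue, in the same order. The share was thus highest in BALB/cJ in each tissue by its median, while the size of the gap differed. How reads of the pair were assigned in each strain was not tested.

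**Figure D2:**
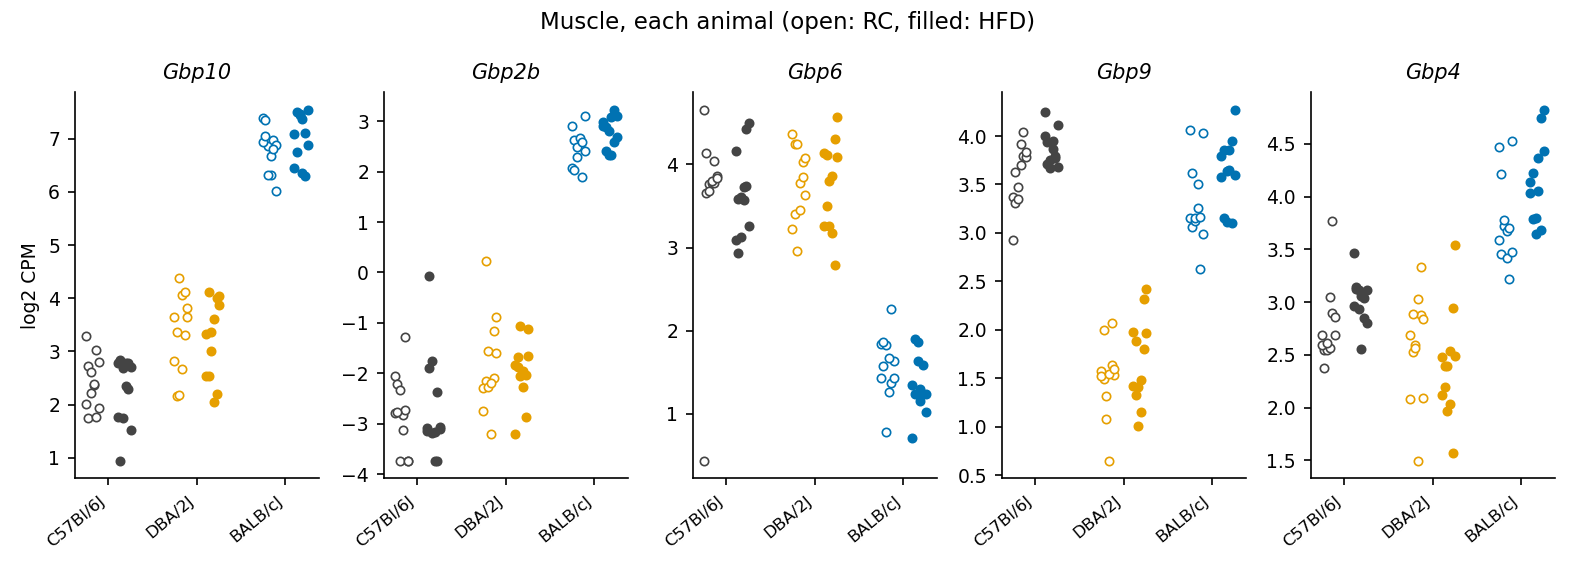
Muscle levels in log2 CPM of Gbp10, Gbp2b, Gbp6, Gbp9 and Gbp4, one point per animal, 12 animals per strain and diet (open for RC, filled for HFD). BALB/cJ lies above in Gbp10 and Gbp2b, below in Gbp6 except for 1 C57Bl/6J animal, and DBA/2J lies below in Gbp9.

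Gbp9, a chromosome 5 member, ranged on RC from 0.65 to 2.07 log2 CPM in DBA/2J muscle (median 1.54). C57Bl/6J ranged from 2.92 to 4.05 (median 3.67) and BALB/cJ from 2.62 to 4.06 (median 3.16). DBA/2J did not overlap either strain, on RC or on HFD. The difference of DBA/2J from C57Bl/6J was -2.09 ± 0.12 on RC (adjusted p = 2.8e-22, limma) and -2.19 ± 0.12 on HFD, and over the 6 combinations of diet and day it lay between -2.57 and -1.76. BALB/cJ was above DBA/2J by 1.81 ± 0.12 and 1.95 ± 0.12. BALB/cJ and C57Bl/6J differed in Gbp9 by -0.28 ± 0.12 on RC and -0.25 ± 0.12 on HFD, not past the threshold (adjusted p = 0.0539 and 0.115, limma).

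Gbp4 of the same cluster was highest in BALB/cJ muscle. On HFD it ranged from 3.65 to 4.83 log2 CPM there (median 4.10), above every animal of C57Bl/6J (2.56 to 3.47, median 3.05) and of DBA/2J (1.57 to 3.54, median 2.40). On RC the BALB/cJ animals (3.22 to 4.53) overlapped both strains. BALB/cJ was above C57Bl/6J by 1.00 ± 0.14 on RC and 1.13 ± 0.14 on HFD, and above DBA/2J by 1.19 ± 0.14 and 1.76 ± 0.14. Gbp3, of the chromosome 3 cluster, was lowest in DBA/2J. On HFD its DBA/2J values, 0.76 to 2.33 log2 CPM (median 1.43), did not overlap those of C57Bl/6J, 2.70 to 3.22 (median 2.94). The difference was -1.54 ± 0.13 on HFD (adjusted p = 6.3e-15, limma) and -0.87 ± 0.13 on RC, where the groups overlapped. Gbp3 was also lower in BALB/cJ than in C57Bl/6J, by -0.52 ± 0.13 on RC and -0.61 ± 0.13 on HFD on the log2 scale.

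The other chromosome 3 members differed less in muscle. Gbp2 was lower in BALB/cJ than in C57Bl/6J (-0.47 ± 0.11 on RC and -0.38 ± 0.11 on HFD). Gbp5, which promotes assembly of an inflammasome, was below C57Bl/6J in DBA/2J on HFD (-1.23 ± 0.16) and was -0.16 ± 0.16 on RC, not past the threshold. Gbp7 was past the threshold in DBA/2J against C57Bl/6J on RC (0.26 ± 0.11, adjusted p = 0.0488, limma), a call that was lost without any one of 45 libraries. It was also past it in BALB/cJ against DBA/2J on RC (-0.35 ± 0.11). Gbp3 in BALB/cJ against DBA/2J on RC (0.35 ± 0.13, adjusted p = 0.030, limma) was lost without any one of 7 libraries, with a highest adjusted p of 0.107 (limma). Counted over members and animals, groups did not overlap for Gbp2b and Gbp10 between BALB/cJ and C57Bl/6J on RC (2 of 9, where 4.99% of all genes did not), and for Gbp2b, Gbp4, Gbp6 and Gbp10 on HFD (4 of 9, 5.46% of all genes). Between BALB/cJ and DBA/2J they did not for Gbp2b, Gbp6, Gbp9 and Gbp10 on RC (4 of 9, 4.90% of all genes), with Gbp4 added on HFD (5 of 9, 4.08% of all genes). Between DBA/2J and C57Bl/6J they did not for Gbp9 on RC (1 of 9, 5.11% of all genes) and for Gbp3 and Gbp9 on HFD (2 of 9, 5.22% of all genes).

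Macrophage markers were also higher in BALB/cJ muscle. Of 10 markers, 7 were above C57Bl/6J on each diet (21.2% of all genes were on RC and 17.1% on HFD), with summed levels of 120 to 207.9 CPM on RC in BALB/cJ and 42.3 to 285 CPM in C57Bl/6J. On HFD the sums were 111 to 230 and 53 to 155 CPM. Of 8 T cell markers and of 8 B cell markers, 0 were past the threshold between these strains on either diet (44.5% of all genes were on RC and 34.7% on HFD). Against DBA/2J on HFD, 7 of 8 T cell and 6 of 8 B cell markers were higher in BALB/cJ (19.3% of all genes were). With the mean of the T and B cell markers as covariate, the calls of Gbp10, Gbp2b, Gbp4 and Gbp6 in BALB/cJ against both strains were kept. The part of macrophages, T cells and B cells in these differences was not tested further.

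In liver, most members were lower in BALB/cJ than in C57Bl/6J. On RC, 8 of 10 members differed between BALB/cJ and C57Bl/6J (46.8% of all genes did), 7 of them lower (23.9% of all genes were) and 1 higher (22.9%) in BALB/cJ. On HFD, 9 of 10 differed (44.2% of all genes), 8 lower (21.9%) and 1 higher (22.3%). Between BALB/cJ and DBA/2J, 7 of 10 differed on RC (42.1% of all genes) and 5 of 10 on HFD (32.7%). Of these, Gbp4 was higher in BALB/cJ on RC, Gbp3 and Gbp4 were higher on HFD, and the rest were lower. Between DBA/2J and C57Bl/6J, 3 of 10 differed on RC (48.1%) and 5 of 10 on HFD (42.7%), below the background on RC. The median member differed between BALB/cJ and C57Bl/6J on RC by -0.65 on the log2 scale, beside -0.01 over all genes.

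Gbp6 was low in BALB/cJ liver too. On RC its BALB/cJ values were -1.14 to 0.30 log2 CPM (median -0.67), those of DBA/2J 0.47 to 1.63 (median 1.23) and those of C57Bl/6J -0.13 to 1.63 (median 0.88). BALB/cJ lay below every DBA/2J animal on RC and overlapped C57Bl/6J. The difference from C57Bl/6J was -1.37 ± 0.19 on RC (adjusted p = 8.9e-09, limma) and -1.70 ± 0.19 on HFD. From DBA/2J it was -1.71 ± 0.19 and -1.50 ± 0.19. Gbp8 was lower in BALB/cJ than in C57Bl/6J by -1.08 ± 0.23 and -1.32 ± 0.23 on the log2 scale. Gbp9 (-0.72 ± 0.15 and -0.64 ± 0.15) was also lower.

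Gbp2 ranged on HFD from 0.64 to 1.56 log2 CPM in BALB/cJ liver (median 0.99), below every DBA/2J animal (1.76 to 2.76, median 2.37). C57Bl/6J lay at 1.34 to 2.65 (median 2.13). BALB/cJ was below C57Bl/6J by -0.97 ± 0.14 on RC (adjusted p = 6.0e-08, limma) and -0.99 ± 0.14 on HFD. Below DBA/2J it was by -1.11 ± 0.14 and -1.26 ± 0.14. Between BALB/cJ and DBA/2J, the liver groups of 1 member of 10 did not overlap on HFD, Gbp2 (3.09% of all genes did not), and those of 1 on RC, Gbp6 (5.52% of all genes). Gbp3 was highest in C57Bl/6J. DBA/2J was below it by -0.61 ± 0.15 on RC and -1.19 ± 0.15 on HFD, and BALB/cJ by -0.53 ± 0.15 and -0.78 ± 0.15.

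Gbp2b was again the exception, lowest in C57Bl/6J. On RC it ranged there from -1.31 to 1.00 log2 CPM (median 0.13), in DBA/2J from 0.04 to 1.99 (median 1.06) and in BALB/cJ from 0.09 to 1.63 (median 0.88), with overlap. BALB/cJ was above C57Bl/6J by 0.88 ± 0.25 on RC and 1.07 ± 0.25 on HFD, and DBA/2J by 1.08 ± 0.25 and 1.33 ± 0.25. BALB/cJ and DBA/2J differed by -0.20 ± 0.25 and -0.26 ± 0.25, not past the threshold, where the muscle differences were 4.29 and 4.74. Gbp4 was lowest in DBA/2J, with BALB/cJ above it by 1.15 ± 0.20 on RC and 0.86 ± 0.20 on HFD. Gbp7 and Gbp5 were lower in BALB/cJ than in C57Bl/6J on both diets (Gbp7 -0.62 ± 0.13 and -0.36 ± 0.13, Gbp5 -0.68 ± 0.25 and -0.71 ± 0.25). The call of Gbp5 on RC was lost without either of 2 libraries (adjusted p up to 0.0706, limma), and on HFD without 1 BALB/cJ library (0.0539). That of Gbp7 on HFD was lost without 1 BALB/cJ library (0.0588). Gbp10 was lower in BALB/cJ on HFD (-0.88 ± 0.23) and -0.37 ± 0.23 on RC, not past the threshold. Gbp10 in DBA/2J against C57Bl/6J on HFD (-0.61 ± 0.23) was lost without any one of 3 libraries, and was -0.25 (adjusted p = 0.488, limma) with the range of the animal numbers as covariate. The call of Gbp3 in BALB/cJ against DBA/2J on HFD (0.41 ± 0.15) was lost without any one of 7.

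**Figure D3:**
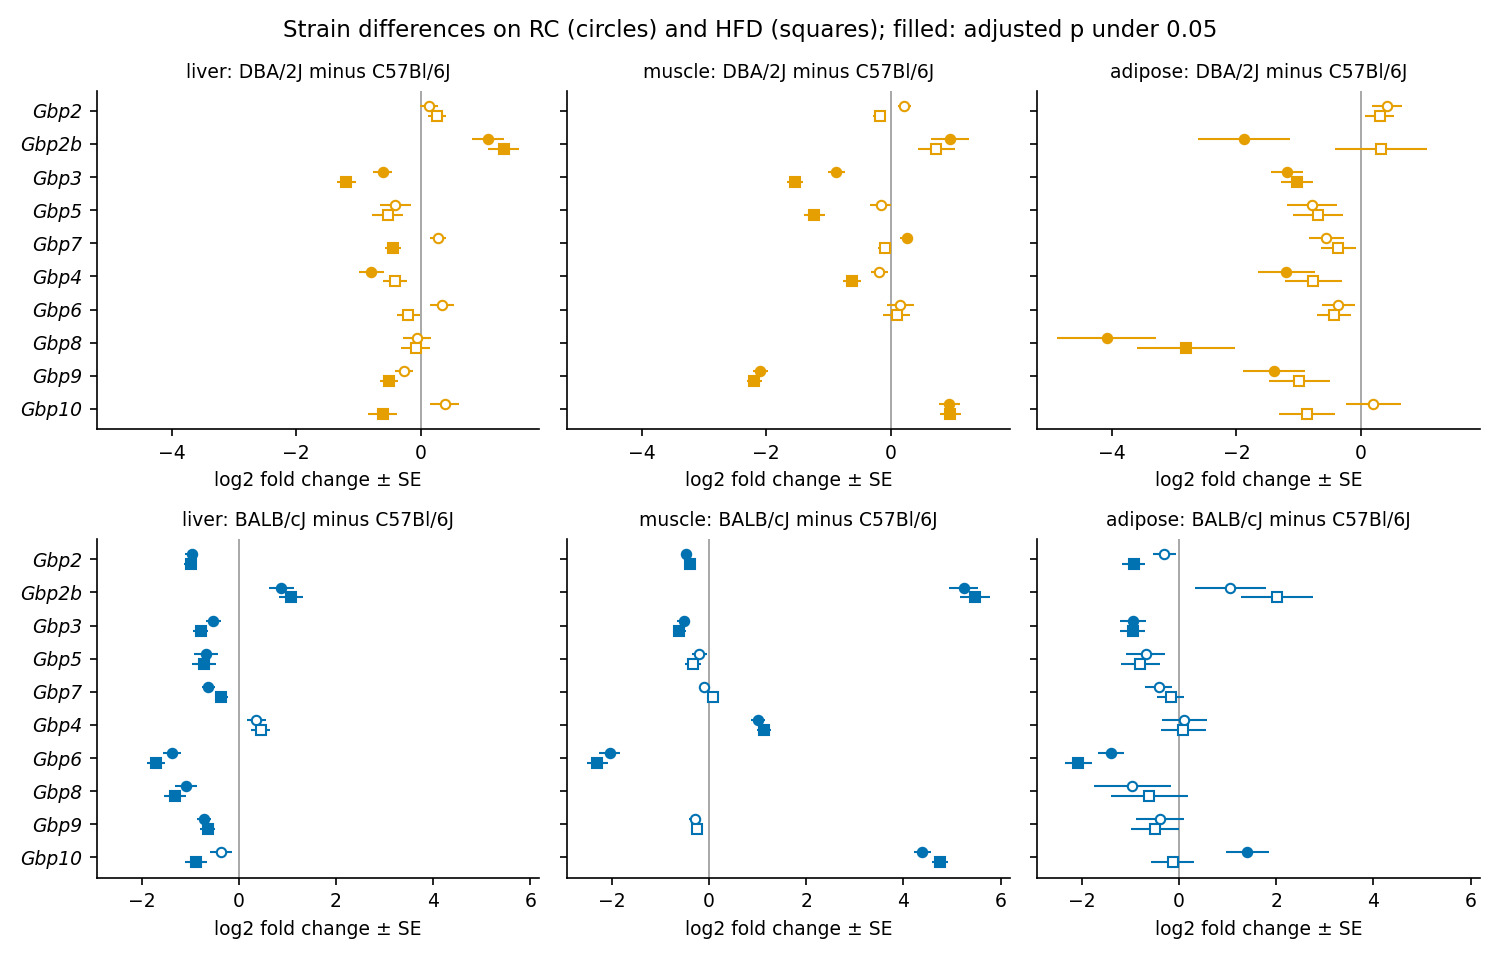
Differences of DBA/2J (upper panels) and BALB/cJ (lower panels) from C57Bl/6J as log2 fold change ± standard error, by gene and tissue, on RC (circles) and HFD (squares), filled where the adjusted p is under 0.05. In the BALB/cJ panels Gbp6 lies to the left in each tissue and Gbp2b to the right in liver and muscle. In muscle Gbp2b lies farthest to the right, followed by Gbp10.

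Macrophage markers in liver were counted in the same pair. Between BALB/cJ and C57Bl/6J, 3 of 10 were lower on RC (23.9% of all genes were) and 6 of 10 on HFD (21.9%), with summed levels of 145 to 200 against 90.7 to 274 CPM on RC and 87.8 to 326 against 119 to 558 CPM on HFD. Of the T cell and the B cell markers, 1 each had a row in liver. With the mean of both as covariate, Gbp8, Gbp9 and Gbp10 in BALB/cJ against DBA/2J on RC were no longer called (adjusted p = 0.137, 0.343 and 0.114, limma). Nor was Gbp3 in that pair on HFD (0.0716). Gbp5 in BALB/cJ against C57Bl/6J on HFD was lost under that covariate as well. The part of macrophages, T cells and B cells in the lower Gbp levels was not tested further.

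In adipose tissue, the level of several members moved with the set of libraries by B cell markers, and the strains were unevenly spread over the sets. The low set held 6 C57Bl/6J, 17 DBA/2J and 9 BALB/cJ libraries, the high set 18, 7 and 15. Diets were spread evenly, with 15 RC and 17 HFD libraries in the low set and 21 and 19 in the high set. Over all libraries, 5 of 10 members differed between DBA/2J and C57Bl/6J on RC (41.7% of all genes did), 3 of 10 between BALB/cJ and C57Bl/6J (11.2%) and 5 of 10 between BALB/cJ and DBA/2J (16.2%). On HFD the counts were 2 (10.3% of all genes), 3 (16.3%) and 3 (22.6%) in the same order. On RC all 8 B cell and all 10 T cell markers were below C57Bl/6J in DBA/2J (sums of 8.36 to 2429 against 16.8 to 2474 CPM for B cell markers). Without the 2 libraries with few adipocyte markers, the HFD counts were 3 (14.8% of all genes), 3 (11.8%) and 9 (23.6%), and the RC counts 8 (51.4%), 3 (16%) and 7 (24.8%).

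The strain differences were therefore fitted again within each set, without those 2 libraries, with diet and day as further terms, an alternative chosen after seeing the data. Within the low set, Gbp2b of BALB/cJ ranged from 5.59 to 6.52 log2 CPM (median 6.01, n = 7). DBA/2J ranged from 1.51 to 2.89 (median 2.12, n = 17) and C57Bl/6J from 0.53 to 1.56 (median 0.96, n = 6). The groups hardly met: BALB/cJ lay far above both, and DBA/2J overlapped C57Bl/6J by a small margin. BALB/cJ was above C57Bl/6J by 5.04 ± 0.19 (adjusted p = 1.5e-17, limma) and DBA/2J by 1.09 ± 0.16. Within the high set the medians were 6.10 in BALB/cJ, 5.58 in DBA/2J and 5.42 in C57Bl/6J (2.59 to 6.35), and BALB/cJ was above C57Bl/6J by 1.04 ± 0.26. Over all libraries, Gbp2b in DBA/2J against C57Bl/6J on RC was -1.87 ± 0.74, lower, while both sets by themselves gave it higher (1.09 and 1.12). Without the 2 libraries with few adipocyte markers, Gbp2b was higher in BALB/cJ than in C57Bl/6J on HFD by 3.03 (adjusted p = 0.000491, limma). With them the difference was 2.02 ± 0.74 and not past the threshold.

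Gbp8, which had no muscle row, had lower medians in the low set in each strain. In the low set its median was 2.22 log2 CPM in C57Bl/6J (1.12 to 2.80), -0.08 in DBA/2J (-1.71 to 0.66) and 1.41 in BALB/cJ (0.85 to 2.53). In the high set the medians were 5.53, 4.4 and 5.41. DBA/2J was lowest in both sets and did not overlap the other strains in the low one. It was below C57Bl/6J by -2.22 ± 0.23 in the low set and by -0.95 ± 0.17 in the high set, beside -4.08 ± 0.79 on RC and -2.81 ± 0.79 on HFD over all libraries. That HFD call was lost with the range of the animal numbers as covariate and with voom (adjusted p up to 0.267, limma). The RC call was kept under all alternatives, among them the B cell marker set and the T and B cell markers as covariates. Its difference lay between -4.17 and -1.59 over them. The part of B cells in these differences was not tested further.

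Gbp6 was low in BALB/cJ adipose tissue as well, and Gbp10 was higher in some of the comparisons. In the high set Gbp6 ranged from 0.97 to 2.70 log2 CPM in BALB/cJ (median 1.70), 2.62 to 3.95 in C57Bl/6J (median 3.11) and 2.38 to 2.97 in DBA/2J (median 2.71). BALB/cJ was below C57Bl/6J by -1.44 ± 0.11 there and by -1.53 ± 0.26 in the low set. Over all libraries Gbp6 in BALB/cJ against C57Bl/6J was -1.40 ± 0.27 on RC and -2.07 ± 0.27 on HFD, the latter -1.55 without the 2 libraries. Gbp10 was above C57Bl/6J in BALB/cJ by 1.07 ± 0.22 in the high set, and on RC over all libraries by 1.40 ± 0.44, a call lost without any one of 3 libraries. On HFD it was -0.13 ± 0.44 with all libraries and 0.67 without the 2 with few adipocyte markers, past the threshold in neither. Against DBA/2J it was higher by 1.49 in the low and 1.34 in the high set. How reads of Gbp6 and Gbp10 were assigned was not tested here either.

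Gbp3 of C57Bl/6J had a median of 5.80 log2 CPM in the low set and 5.77 in the high set. In DBA/2J the medians were 4.27 and 5.30, without overlap of the sets (3.81 to 4.87 and 5.16 to 5.75), and in BALB/cJ 4.47 and 5.30. In the low set DBA/2J (3.81 to 4.87, median 4.27) and BALB/cJ (3.82 to 5.09, median 4.47) lay below every C57Bl/6J library (5.24 to 5.99), by -1.36 and -1.22 in the fit. In the high set Gbp3 of BALB/cJ was lower by -0.51, and DBA/2J was not past the threshold. Over all libraries Gbp3 was lower in DBA/2J on RC (-1.19 ± 0.26) and HFD (-1.03 ± 0.26), and in BALB/cJ on RC (-0.95 ± 0.26). With the range of the animal numbers as covariate, Gbp3 in DBA/2J on HFD was -0.56 (adjusted p = 0.303, limma) and in BALB/cJ on RC -0.68 (0.101), neither called. Gbp3 in BALB/cJ on HFD was -0.95 ± 0.26 with all libraries and -0.49, no longer past the threshold (adjusted p = 0.0914, limma), without the 2 libraries. Gbp2 of BALB/cJ was below that of DBA/2J in both sets, by -0.35 in the low and -0.69 in the high set. Gbp2 in BALB/cJ against C57Bl/6J on HFD was -0.93 ± 0.23 with all libraries and -0.43 without the 2, still past the threshold. Gbp9 of DBA/2J was below that of C57Bl/6J in the low set (-1.23), where the medians were 4.25 and 5.53, and was not called in the high set (medians 7.01 and 6.41). Gbp4 was higher in BALB/cJ than in DBA/2J by 0.67 in the low and 0.77 in the high set. Over all libraries, the RC calls of Gbp2b (12 libraries), Gbp4 (8) and Gbp9 (1 DBA/2J library of day 5) in DBA/2J against C57Bl/6J were each lost on leaving out any one of the number of libraries given. So was Gbp4 in BALB/cJ against DBA/2J on RC (14), and Gbp8 in that pair on HFD (11), where it was 2.20 ± 0.79 with all libraries and 2.95 without the 2 with few adipocyte markers. The RC calls of Gbp2b, Gbp4 and Gbp9 in DBA/2J against C57Bl/6J were also lost with covariates. These were the B cell marker set, the T and B cell markers, and the range of the animal numbers. Over the alternatives their differences shrank to as little as -0.02, -0.03 and -0.08 (adjusted p up to 0.989, 0.967 and 0.915, limma).

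Within the sets, the members called in DBA/2J against C57Bl/6J were 5 of 10 (23.4% of all genes) in the low and 2 of 10 (24.3%) in the high set. In BALB/cJ against C57Bl/6J they were 5 of 10 (25%) and 7 of 10 (28.8%). In BALB/cJ against DBA/2J they were 7 of 10 (34%) and 6 of 10 (17%). Differences between the sets themselves were not tested.

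**Figure D4:**
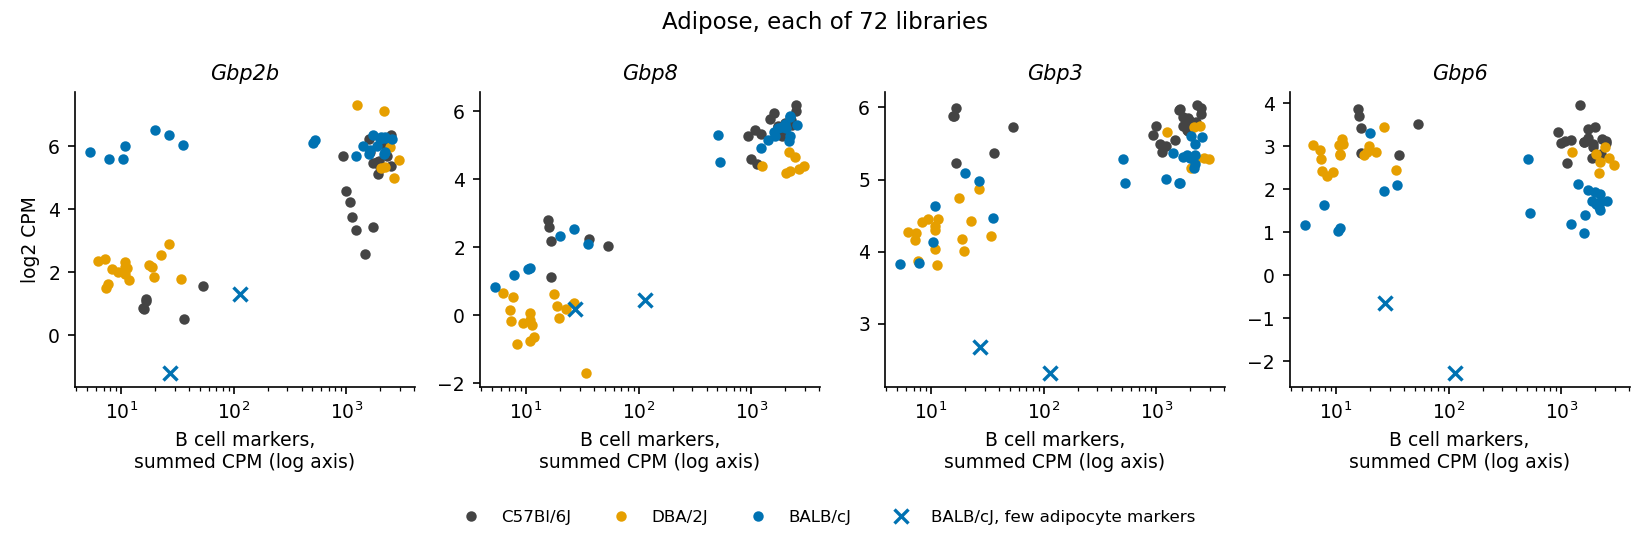
Adipose levels in log2 CPM of Gbp2b, Gbp8, Gbp3 and Gbp6 against the summed CPM of 8 B cell markers on a log axis, one point per library, coloured by strain, with crosses for the 2 libraries with few adipocyte markers. Gbp2b of BALB/cJ lies near 6 in both sets of libraries, while Gbp2b of the other strains and Gbp8 of all strains differ between the sets.

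Fewer members were called by diet than by strain. Over all strains, HFD raised 3 of 10 members in liver (21.2% of all genes were called). Gbp2 rose by 0.33 ± 0.08 on the log2 scale, Gbp3 by 0.35 ± 0.09 and Gbp6 by 0.40 ± 0.11, while Gbp10 was 0.35 ± 0.13 (adjusted p = 0.051, limma). In muscle 1 of 9 rose (17.4% of all genes were called), Gbp9 by 0.26 ± 0.07. In adipose tissue limma called 0 of 10 (2.67% of all genes), 0 had an unadjusted p under 0.05, and voom on recovered reads also called 0. Within strains limma and voom called 0 of 10 (C57Bl/6J 0.115% of all genes, DBA/2J 0.411%, BALB/cJ 0.435%), with 1, 0 and 2 members at an unadjusted p under 0.05. In BALB/cJ on day 33, Gbp2 was lower on HFD by -1.25 ± 0.41 (adjusted p = 0.0411, limma; 10.7% of all genes), which was no longer called without the 2 libraries with few adipocyte markers. Within the low set of libraries, Gbp8 was higher on HFD by 0.74 ± 0.17 (adjusted p = 0.00908, limma; 8.61% of all genes).

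Within C57Bl/6J liver, 3 of 10 members rose on HFD (2.31% of all genes were called). Gbp3 ranged from 2.13 to 3.24 log2 CPM on HFD (median 2.68) and from 1.24 to 2.64 on RC (median 2.10), with overlap. Its difference was 0.63 ± 0.15 (adjusted p = 0.00974, limma). Gbp6 was higher by 0.70 ± 0.19 and Gbp10 by 0.85 ± 0.23. Those of Gbp6 and Gbp10 were lost without any one of 7 and of 6 libraries, with an adjusted p of up to 0.0900 and 0.0939 (limma). Both were also lost with T and B cell markers as covariate and with only the animals compared (adjusted p up to 0.149 and 0.135, limma). On day 33 the C57Bl/6J values of Gbp10 were 1.38, 1.43, 2.29 and 3.37 log2 CPM on HFD and -0.72, 0.27, 1.11 and 1.42 on RC, a difference of 1.6 ± 0.40 (adjusted p = 0.0315, limma; 0.912% of all genes were called).

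Gbp7 changed with diet in opposite directions in liver of DBA/2J and BALB/cJ. In DBA/2J it fell by 0.57 ± 0.13 on the log2 scale (adjusted p = 0.000696, limma; 2 of 10 members were called, with Gbp2 up by 0.42 ± 0.14, and 21.6% of all genes). In BALB/cJ it rose by 0.43 ± 0.13 (adjusted p = 0.0170, limma; 1 of 10 members, 14.8% of all genes), and in C57Bl/6J it was 0.16, not past the threshold. The BALB/cJ call was lost without 1 RC library of day 33 (0.0591), and that of Gbp2 in DBA/2J without any one of 3 libraries. On day 33 the 4 DBA/2J animals on HFD stood at 1.94, 2.26, 2.65 and 2.92 log2 CPM, all below the 4 on RC at 3.34, 3.38, 3.43 and 3.54, a difference of -0.98 ± 0.22 (15.9% of all genes were called). The 4 BALB/cJ animals on HFD stood at 2.39, 2.68, 2.91 and 2.96, all above those on RC at 1.05, 1.85, 2.12 and 2.17, a difference of 0.94 ± 0.22 (9.59% of all genes). Gbp10 was higher on HFD there too, by 1.2 ± 0.40. The diet effect on Gbp7 differed between strains in an F test over the 3 strains (adjusted p = 0.000238, limma), the 1 member of 10 that did (15.7% of all genes). BALB/cJ exceeded DBA/2J in this effect by 1.00 ± 0.18 (8.61% of all genes were called in that contrast), and DBA/2J was below C57Bl/6J in it by -0.73 ± 0.18 (10.3%). Gbp10 was called in the last contrast too (-1.0 ± 0.33). Between days, the diet effect differed for Gbp10 in liver (adjusted p = 0.0420, limma, 1 of 10 members and 3.35% of all genes).

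In muscle, 2 chromosome 3 members fell on HFD in DBA/2J. Gbp5 fell on HFD in DBA/2J by 0.77 ± 0.16 on the log2 scale (adjusted p = 0.00103, limma) and Gbp7 by 0.39 ± 0.11 (0.0119), 2 of 9 members beside 8.73% of all genes. On day 13 the Gbp5 values were 0.34, 0.46, 0.70 and 1.34 log2 CPM on HFD and 1.86, 2.10, 2.18 and 2.45 on RC, without overlap, a difference of -1.44 ± 0.28 (adjusted p = 0.000714, limma; 4.55% of all genes), and Gbp3 was lower by -0.83 ± 0.23. On day 5 they were 0.43, 0.71, 0.76 and 0.80 on HFD and 0.71, 1.16, 1.35 and 1.73 on RC. On day 33 they were 1.30, 1.69, 1.71 and 2.02 on HFD and 1.84, 1.87, 1.90 and 2.28 on RC, so that the groups overlapped on both of these days. The effect differed between strains for 4 of 9 members in the F test (9.83% of all genes), namely Gbp5 (adjusted p = 0.00203, limma), Gbp3 (0.0237), Gbp7 (0.0357) and Gbp2 (0.0485), all on chromosome 3. For Gbp5 the DBA/2J effect was below that of C57Bl/6J by -1.06 ± 0.23, and for Gbp3 by -0.67 ± 0.19 (4.3% of all genes). BALB/cJ exceeded DBA/2J in it by 0.93 ± 0.23 for Gbp5 and 0.53 ± 0.15 for Gbp7 (3.07% of all genes). In C57Bl/6J and BALB/cJ, limma called 0 of 9 members by diet (5.75% and 11.5% of all genes). There, 3 of 9 in each strain had an unadjusted p under 0.05. On day 33, Gbp9 (0.71) and Gbp4 (0.84) were higher on HFD in BALB/cJ (3.79% of all genes). Without 1 BALB/cJ RC library of day 33, Gbp2 (0.37), Gbp9 (0.41) and Gbp4 (0.47) were higher on HFD in BALB/cJ and Gbp3 lower in DBA/2J (-0.36), each past the threshold. Voom on recovered reads called 3 of 27 strain-wise diet tests in muscle, where limma on log2 CPM called 2.

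**Figure D5:**
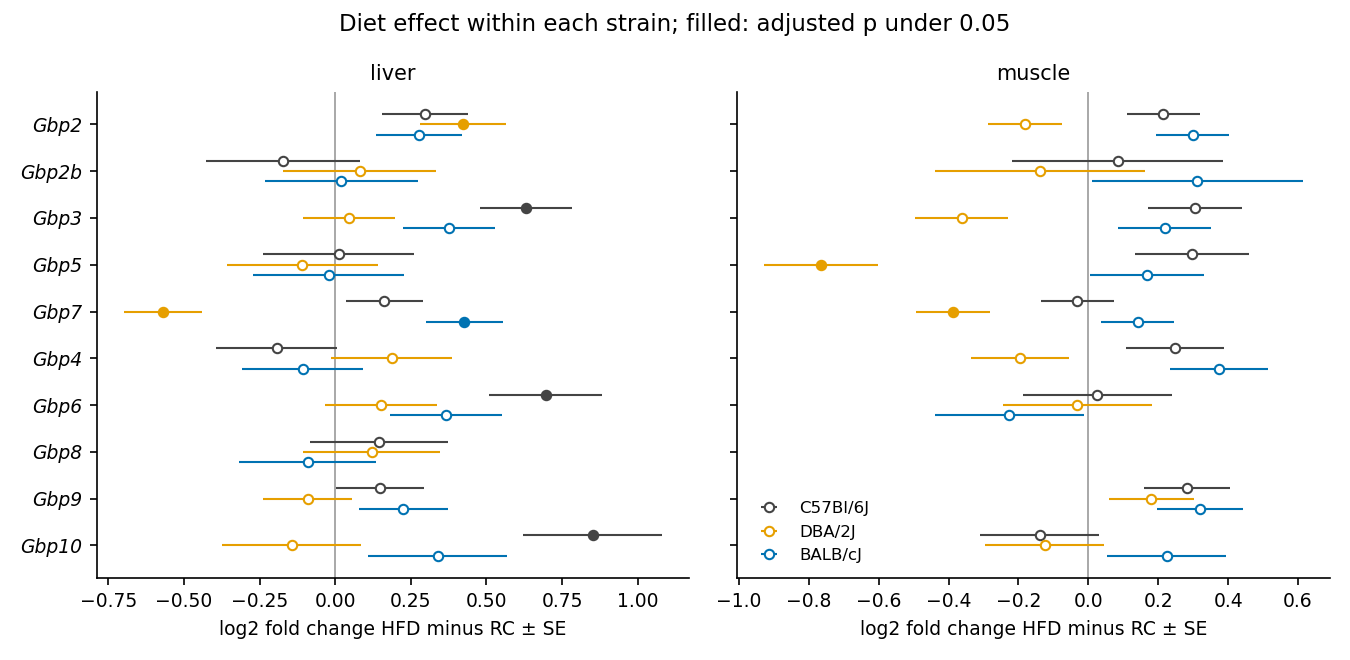
Diet difference within each strain, as log2 fold change of HFD minus RC ± standard error, by gene, in liver and muscle, coloured by strain and filled where the adjusted p is under 0.05. Gbp7 lies left in DBA/2J in both tissues and right in BALB/cJ liver, and Gbp5 lies left in DBA/2J muscle.

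Among muscle animals on HFD, 4 of 9 members were higher on day 33 than on day 5 (12.5% of all genes were called). Gbp10 rose by 0.73 ± 0.17 on the log2 scale (adjusted p = 0.0028, limma), Gbp9 by 0.47 ± 0.12, Gbp4 by 0.43 ± 0.14 and Gbp7 by 0.41 ± 0.11. In C57Bl/6J, Gbp10 stood on HFD at 0.94, 1.52, 1.76 and 1.78 log2 CPM on day 5 and at 2.35, 2.70, 2.78 and 2.78 on day 33, without overlap. In DBA/2J it stood at 2.05, 2.53, 2.54 and 3.36 on day 5 and at 3.33, 4.01, 4.04 and 4.11 on day 33. In BALB/cJ, where it is highest, it stood at 6.45, 6.75, 7.11 and 7.45 and then at 6.30, 6.36, 6.88 and 7.38. The call of Gbp4 was lost without any one of 8 libraries (adjusted p up to 0.0933, limma). On RC limma called 0 of 9 (2.85% of all genes), 1 of which had an unadjusted p under 0.05, and whether the change with time differed between diets was not tested. In liver limma called 0 of 10 on RC (0.666% of all genes) and on HFD (5.48%), with 2 and 3 at an unadjusted p under 0.05, and voom called 0. In adipose tissue it called 0 of 10 on each diet (0.0181% and 0.0484% of all genes), 0 at an unadjusted p under 0.05, and voom 0.

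Across animals, after the mean of each of the 18 groups was subtracted, members varied together unevenly. The following correlations are descriptions over 72 animals, or over the libraries of 1 adipose set, whose points share library and tissue piece. In muscle, the median r of 36 pairs was 0.24, from -0.28 (Gbp9 and Gbp10) to 0.72 (Gbp2 and Gbp4). In liver the median of 45 pairs was 0.33, the highest 0.58 for Gbp4 and Gbp8. In adipose tissue, where the libraries form 2 sets, the median of 45 pairs was 0.58 in the low and 0.36 in the high set. Within the sets, the mean of each strain and diet was subtracted instead, with day left in. The low set held 30 libraries there, without the 2 with few adipocyte markers, and the high set 40. The genes outside the family most like its mean in muscle were Sp100 (r = 0.75), Pml (0.65), AU020206 (0.65), Flt3l (0.63) and Parp14 (0.62). In liver they were Cd74 (0.73), H2-Aa (0.69), Pilrb1 (0.68), Itgal (0.68) and H2-Eb1 (0.67), of which Cd74, H2-Aa and H2-Eb1 belong to antigen presentation by class II molecules. In adipose tissue, the 5 genes of highest r over all libraries had lower values within the sets. Rassf2 had 0.71 in the low and 0.40 in the high set, Ifi203 0.54 and 0.65, Nlrc5 -0.03 and 0.61, Ppp1r18 0.36 and 0.31, and Sp140 0.30 and 0.38.

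Other genes of the interferon response were counted by list. Of the immunity-related GTPases, another interferon-induced GTPase family, 0 were higher and 4 of 8 lower in BALB/cJ than in C57Bl/6J muscle on RC (23.3% of all genes were lower). On HFD 0 were higher and 5 of 8 lower (17.6%). In the same comparison Gbp10, Gbp2b and Gbp4 were higher on both diets, and Gbp6, Gbp3 and Gbp2 were lower on both. In liver the same pair gave 0 immunity-related GTPases higher and 4 of 8 lower on RC (23.9% of all genes were lower), and 0 and 5 of 8 on HFD (21.9%). In adipose tissue of DBA/2J against C57Bl/6J on RC, 1 was higher and 9 of 12 lower (3393 of 16541 genes were lower). These strains were unevenly spread over the B cell marker sets of adipose libraries, and this count was not made within the sets. Targets of type I interferon were lower in muscle of DBA/2J than of C57Bl/6J, with 11 of 17 lower and 1 higher on RC (19.4% of all genes were lower) and 15 of 17 lower and 1 higher on HFD (17%). Among them Rsad2, an antiviral protein, was lower by -2.09 ± 0.17 on HFD, and Xaf1 was higher by 1.52 ± 0.09. In liver, 14 of 20 such targets were lower and 1 higher in BALB/cJ than in C57Bl/6J on HFD (21.9% of all genes were lower), and 8 lower and 1 higher on RC (23.9%). Targets of interferon gamma gave 6 lower and 1 higher of 15 in BALB/cJ liver against C57Bl/6J on HFD, and 7 lower and 3 higher on RC, beside the same shares of all genes. In muscle the same pair gave 2 lower and 1 higher of 14 on HFD (17.6% of all genes were lower and 17.1% higher), and 1 lower and 3 higher on RC (23.3% and 21.2%). Irf7, a transcription factor of the type I response, was lower in BALB/cJ liver on HFD by -1.0 ± 0.10, while Irf1, which binds ISRE letters, was higher by 0.65 ± 0.17 on HFD and lower by -0.67 ± 0.17 on RC. In muscle of BALB/cJ against C57Bl/6J on RC, the inflammasome genes gave 2 higher and 2 lower of 7 (21.2% of all genes were higher and 23.3% lower).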

How the data were processed

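Stranded mRNA libraries were sequenced as 100-base single reads, per the labels' protocols. The submitters' processing notes name STAR 2.5.3a, edgeR and GRCm38, while counter, annotation and filter are not given in the sources used here. Log2 CPM were deposited by the authors, 1 table per tissue. Library totals and RPKM came from the whole reads recovered from those values (100% whole), with a prior count of 0.25 reads in liver and 2 in both other tables.

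Genes with a log2 CPM of at least 0 in 4 or more animals were tested. The deposited log2 values were fitted with limma 3.58.1 in R 4.3.3, with 18 group means per tissue over 72 animals, Benjamini-Hochberg adjustment over all genes of a table and a threshold of 0.05. The animal is the replicate. The fit was tested on simulated data. The members and lists were chosen with earlier results of these data known. All members are named, with up to 4 genes of each other list by smallest p and the 5 genes most like the family mean in each tissue. Alternatives were other scalings, filters and covariates, voom, a replicate block and leaving out each library.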

Additional observations from a re-analysis of the deposited data

Results flagged for a closer look

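The diet effect differed between strains, by an F test in limma with Benjamini-Hochberg adjustment, for Gbp7 in liver (adjusted p = 0.000238). In muscle it differed for Gbp5 (adjusted p = 0.00203), Gbp3 (0.0237), Gbp7 (0.0357) and Gbp2 (0.0485), all by limma. In liver the diet effect of Gbp10 differed between days (adjusted p = 0.0420, limma).

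In 5 of 54 groups of 4 animals, 1 library lay far from the other 3 in the mean log2 CPM of the members. Chance alone gives this in about 1 in 20 groups. They were a DBA/2J muscle library on RC of day 33 (2.73), DBA/2J adipose libraries on HFD of day 5 (3.36) and day 13 (4.87), a C57Bl/6J adipose library on RC of day 33 (3.75) and a BALB/cJ adipose library on HFD of day 33 (0.89). The last is 1 of the 2 libraries with few adipocyte markers. Each of the adipose libraries named was the only one of its group of 4 in its B cell marker set (low, high, low and low in this order). The part of the sets in these deviations was not tested. Tested gene by gene, 36 of 180 groups in adipose tissue, 8 of 180 in liver and 9 of 162 in muscle had a library far from the other 3.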

How the results depend on the processing

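Of 111 calls of members by strain on each diet, diet over all strains and within strains, and day, 85 were kept under every alternative other than leaving out a library (muscle 42 of 44, liver 33 of 46, adipose 10 of 21), and none changed direction in these. Of the 85, 82 were also kept on leaving out each library in turn (muscle 41, liver 32, adipose 9). Fitted within each B cell marker set, Gbp2b in DBA/2J against C57Bl/6J was higher (1.09 and 1.12) where all adipose libraries on RC gave it lower (-1.87). The voom fit, the fits without the 2 adipose libraries and those with the B cell marker set were chosen after seeing the data. The planned edgeR fit was not run, since the deposited values are log2 CPM.

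Counts are of member tests called. Liver diet calls within strains went from 6 to 3 with T and B cell markers as covariates and to 3 with only the animals compared. By strain and day they went from 4 to 2 with the animal number range as covariate. The liver call between days went from 1 to 0 under the number range, the T and B cell markers and voom. Muscle diet calls by strain and day went from 4 to 2 under the number range and under the T and B cell markers. Within strains they went from 2 to 3 with voom, and calls between days from 0 to 1 with quantile scaling. Adipose strain calls on HFD went from 8 to 15 without the 2 libraries. By diet and day they went from 15 to 24 with the T and B cell markers and to 39 without the 2 libraries. Adipose diet calls within strains went from 0 to 1 with the number range. By strain and day they went from 1 to 3 with the number range, to 2 with the T and B cell markers or the marker set, and to 0 with voom, only the animals compared or without the 2 libraries. The causes were not tested.

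Leaving out each library in turn gave 4 to 7 liver diet calls within strains, 2 to 5 by strain and day, 3 to 7 between strains, 0 to 2 by day and 0 to 1 between days. Muscle gave 2 to 6 within strains, 2 to 9 by strain and day, 5 to 12 between strains and 0 to 4 between days. Adipose strain calls ranged from 9 to 15 on RC, 7 to 12 on HFD and 12 to 27 by diet and day, and diet calls by strain and day from 0 to 2.

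Animals with the same number did not deviate together (median r of 76 pairs: liver 0.04, muscle 0.01, adipose -0.06). With a replicate block, liver strain calls were 18 on RC and 19 on HFD, and adipose diet calls by strain and day went from 1 to 0.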
